A study of Mus musculus with 32 samples.

Results

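The early transcriptional response to ischaemia and reperfusion was compared between 2 brain regions as a difference of differences: the change in striatum (I/R 2 h minus sham) minus the change in cortex (I/R 2 h minus sham). The comparison used 16 of the 32 arrays of the series, 4 in each of 4 groups, which were striatum I/R 2 h, striatum sham, cortex I/R 2 h and cortex sham. A positive value means that a gene's level changed more in the upward direction in striatum than in cortex, whichever region had the higher level. All 4 groups were mice of the strain label C57/Bl6, aged 8-10 weeks and labelled Gpx1-/-, so the controls carried the deletion too and no array of a wild-type mouse was analysed here. The growth protocol in the labels names WT males of C57BL/6J background instead, which goes against the titles, the treatment text and the genotype given for each sample, and the conflict was not resolved from the data. The I/R mice had the middle cerebral artery blocked by an intraluminal suture for 2 h, followed by 2 h of reperfusion, and tissue was taken from the right side. Sham mice had only the anaesthetic and the neck incision, so the insertion of the suture is part of the I/R change. The labels do not say whether the 4 samples of a group were separate animals, nor whether cortex and striatum samples with the same number came from 1 animal, so p-values measure the spread between these samples, which may be technical.

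Glutathione peroxidase 1, the product of Gpx1, reduces hydrogen peroxide to water. The suture blocks the artery at its origin, from which small end arteries enter the striatum, while the surface of the cortex also receives blood through collateral vessels. The striatum is built mainly of GABAergic projection neurons and is crossed by bundles of myelinated axons, whereas the cortex is dominated by layers of glutamatergic projection neurons. Early reperfusion is known for the induction of immediate early genes, chemokines and heat shock proteins in both.

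RNA was read on MouseRef-8 V2 bead arrays made by Illumina, on which each probe's brightness is the measure. Values are given as log2 signals after background correction and quantile normalization, on which a step of 1 is 2-fold, and a probe was called detected on an array at a detection p under 0.01. Of 25697 probes, 41.6% to 46.1% were detected on each of the 16 arrays, and arrays of 1 group correlated at 0.987 to 0.994. The 9475 genes tested were each read from 1 probe. Gpx1 itself was detected on all 16 arrays, at 9.27 to 9.49 in striatum I/R 2 h, 9.11 to 9.34 in striatum sham, 8.98 to 9.37 in cortex I/R 2 h and 8.78 to 8.90 in cortex sham. Where its probe lies relative to the deleted part is not given in the sources used here, so this level checks nothing about the genotype.

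The tissue labels were checked against marker genes in the sham arrays. Of 7 cortical projection neuron markers measured, 6 were lower in striatum sham than in cortex sham (limma, adjusted p under 0.05). Of 7 striatal markers only Tac1, the precursor of substance P, was higher in striatum sham, and the dopamine receptor gene Drd1 was at 9.16 to 9.60 in striatum sham and 9.01 to 9.21 in cortex sham. The 4 hypothalamic peptide genes measured, Pmch, Hcrt, Oxt and Avp, were all higher in striatum sham, with Pmch at 11.75 to 12.33 there and 4.79 to 6.03 in cortex sham, and all 3 thalamic markers were higher as well. The groups are called striatum and cortex below as labelled, and what other tissue in these samples contributes to a difference between them was not tested. Striatum I/R 2 h replicate 2 stood apart from its group: Drd1 was 7.52 against 8.79 to 9.03 on the other 3 arrays, the signalling protein gene Ppp1r1b 9.53 against at least 10.79, and the heat shock gene Hspa1a 6.86 against 9.64 to 10.00. Values without it are given where they move a result described here. In bulk tissue, fewer cells of a type and less RNA per cell cannot be told apart.

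No gene passed the test of the region difference at 2 h: 0 of 9475 genes (0%) had an adjusted p under 0.05 in limma, and the lowest adjusted p was 0.2335. At an unadjusted p under 0.05 there were 607 genes (6.41%), 342 of them with a positive difference (3.61%) and 265 with a negative one (2.8%). The precision was enough to bound most differences in signal. The median standard error was 0.189 and the median 95% interval reached 0.387 to either side, and for 8781 genes (92.7%) the whole interval lay within 1 log2 unit of 0, so that a 2-fold regional difference was outside it. For 4022 genes it lay within 0.5. These counts were not split by detection, and for a gene not detected in a group the interval bounds the signal and not the amount of RNA. A difference of at least 1 in size was estimated for 23 genes, of which 13 had an unadjusted p under 0.05. Other fits called between 0 and 55 genes. A fit to the 16 arrays alone called 9 genes (Ccn2, Fam180a, Pdk1, Rtp1, Scn3b, Sphk1 and Ypel1 with positive differences, Rgs16 and Rora with negative ones), and array weights called 55.

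Each region on its own responded clearly. In striatum 597 genes passed (6.3%), 331 higher (3.49%) and 266 lower (2.81%) than in sham, and in cortex 441 passed (4.65%), 209 higher (2.21%) and 232 lower (2.45%). Both counts moved with single arrays: striatum had 191 calls without sham replicate 1, 211 without I/R 2 h replicate 1, 221 and 225 without sham replicates 2 and 3, 262, 343 and 402 without I/R 2 h replicates 3, 2 and 4, and 957 without sham replicate 4, while cortex had 173 to 441, with 173 and 174 without I/R 2 h replicates 2 and 3 and 210, 211, 283 and 290 without sham replicates 1 to 4. Scaling to the 75th percentile moved the cortical split to 341 higher and 218 lower, and the authors' deposited ratios gave 180 higher and 1091 lower in striatum and 154 higher and 1854 lower in cortex, so which direction had more calls depended on the scaling. The 2 comparisons share no arrays. They had 130 genes in common, which is 21.8% of the striatal and 29.5% of the cortical calls, and of these 78 were higher in both, 52 lower in both and 0 of opposite sign. Genes of opposite sign appeared in 6 of the alternatives, 1 to 6 of them, with Pdk1 in each: Pdk1 alone with the replicate block and without cortex I/R 2 h replicate 1, 2 genes in each fit to the 16 arrays, and 6 with array weights. The count in common was 65 to 145 when 1 array was left out, and 33 of the 130 passed in both regions in every such fit. Of 467 genes that passed in striatum alone, 432 (92.5%) had a cortical change of the same sign, and of 311 that passed in cortex alone, 289 (92.9%) had a striatal change of the same sign, against 70.4% of all genes tested. Across all genes the 2 changes correlated at Pearson r 0.677 and Spearman rho 0.560, which describes these libraries, since genes are not independent replicates. Of the 778 genes that passed in 1 region alone, 206 (26.5%) had an unadjusted p under 0.05 for the difference itself, against 6.41% of all genes tested, and none passed after adjustment. The 778 were chosen by changes on the same arrays, which raises this share, so nothing is read from it.

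**Figure D1:**
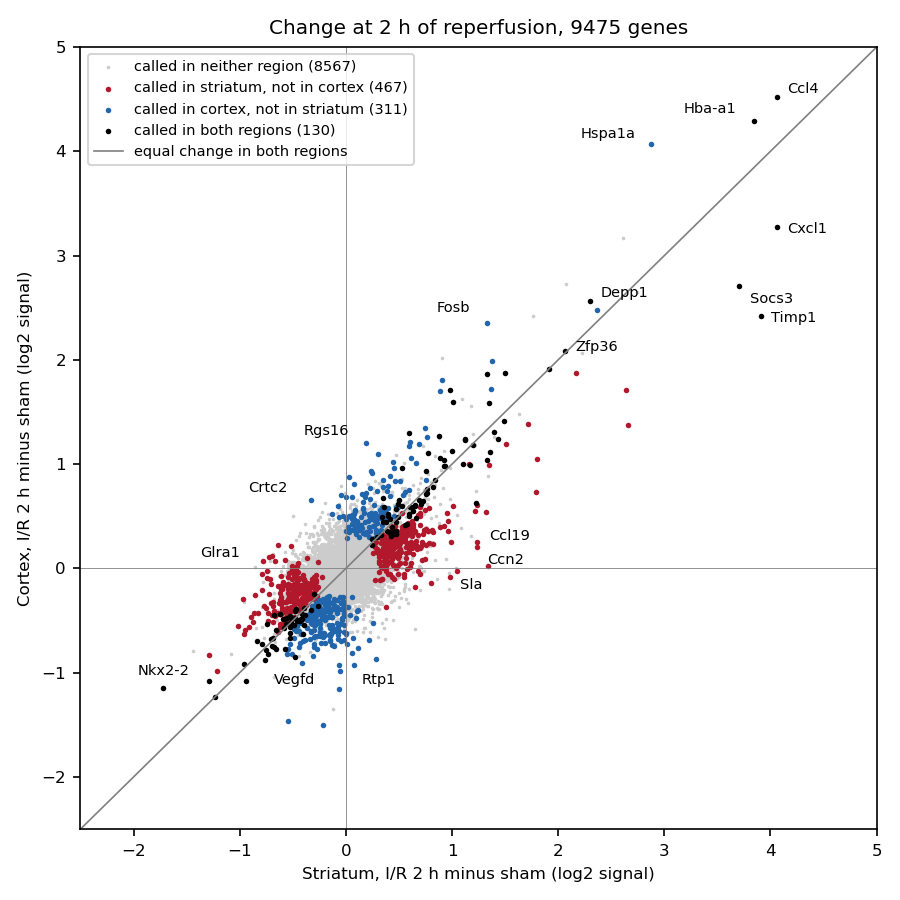
Each point is 1 of 9475 genes, with its change in striatum (I/R 2 h minus sham, log2 signal) on the horizontal axis and its change in cortex on the vertical axis; the diagonal is an equal change in both regions. The 130 genes that passed in both regions all lie in the quadrants of equal sign, and Ccn2, Sla and Rgs16 lie off the diagonal.

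The genes described next are those with the smallest p for the difference in each direction, 12 positive and 12 negative, and since none passed, their differences are values and not calls. Set against same-numbered sham arrays, the 4 striatal changes lay all above or all below the 4 cortical ones for 22 of these 24 genes and for 7.48% of all genes tested, from which nothing is read, since the p that chose the 24 uses the same arrays. Of the 12 positive ones, Ccn2 and Sla had the largest differences among those detected on all 16 arrays.

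Ccn2 (chromosome 10) encodes connective tissue growth factor, a secreted matrix protein and a known target of the YAP and TGF-beta pathways. Its log2 signal was 10.38, 9.97, 10.04 and 10.35 in striatum I/R 2 h, against 8.67, 8.80, 9.04 and 9.28 in striatum sham. In cortex it was 10.62, 10.67, 10.71 and 10.70 in I/R 2 h, against 10.53, 10.34, 10.45 and 10.57 in sham. The striatal groups do not overlap, and the cortical sham arrays were already close to the highest level that striatum reached after reperfusion. The cortical groups do not overlap either, but only by a small margin (10.62 against 10.57 at the nearest). Ccn2 rose 2.36-fold in striatum (log2 1.24, adjusted p = 4.894e-05 in limma), in all 16 fits that left out 1 array, while the cortical change was 0.20 (adjusted p = 0.475). The difference of differences was 1.03 ± 0.22 (SE; 95% interval 0.58 to 1.49; adjusted p = 0.2335). The gap between regions, striatum minus cortex, was -0.49 at 2 h, against -1.52 in sham. Of the 32 alternatives, 5 called this difference.

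Sla (chromosome 15), the adaptor protein SLAP that dampens receptor signalling in lymphocytes, had 7.23, 6.99, 7.28 and 7.35 in striatum I/R 2 h, against 6.01, 5.94, 6.83 and 6.16 in striatum sham. In cortex I/R 2 h it had 7.91, 7.52, 8.17 and 7.95, against 8.03, 7.70, 8.05 and 8.10 in cortex sham. All 4 striatal I/R arrays were above all 4 striatal sham arrays, and the cortical groups overlapped. Sla rose in striatum by 0.98 (adjusted p = 0.002937) and in cortex the change was -0.08 (adjusted p = 0.85), with a difference of 1.06 ± 0.26 (SE; 95% interval 0.53 to 1.59; adjusted p = 0.4264). Array weights alone called it. As with Ccn2, the sham level was lower in striatum than in cortex and the gap was smaller at 2 h, at -0.68, than in sham, at -1.73.

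Pdk1 (chromosome 2), pyruvate dehydrogenase kinase 1, limits the entry of pyruvate into the citric acid cycle and is a textbook target of hypoxia-inducible factor. It had 7.29, 7.58, 7.32 and 7.46 in striatum I/R 2 h, against 7.09, 7.04, 6.93 and 7.06 in striatum sham. In cortex I/R 2 h it had 7.74, 7.42, 7.33 and 7.63, against 7.85, 7.89, 7.87 and 8.01 in cortex sham. The arrays moved in opposite directions in the 2 regions, without overlap between I/R and sham in either. The striatal change was 0.38 (adjusted p = 0.04932 in limma) and the cortical change was -0.37 (adjusted p = 0.0601). The striatal call was kept in only 1 of the 16 fits that left out an array and was lost in the others. Its highest adjusted p was 0.137, without I/R 2 h replicate 2, where the striatal change was 0.33. The difference was 0.76 ± 0.17 (SE; 95% interval 0.41 to 1.10; adjusted p = 0.2335). It was called in 2 of the 32 alternatives. With the replicate block both regional changes passed, with opposite signs (adjusted p = 0.03221 in striatum and 0.0393 in cortex).

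Another 3 positive differences rested on genes near background, for which a fold is a bound or is not given. Rtp1 (chromosome 16), a chaperone of odorant receptors, was detected on all 4 cortex sham arrays, at 6.12, 5.98, 5.93 and 5.99, and on none of the other 12. Cortex I/R 2 h read 4.89 to 5.17, striatum I/R 2 h 4.89 to 5.17 and striatum sham 4.79 to 5.19. Rtp1 fell in cortex to at most 0.90 of its sham level (adjusted p = 0.0008496), in all 16 fits that left out an array, and its difference was 1.00 ± 0.21 (SE; adjusted p = 0.2335), or 0.21 with values below detection raised to the lowest detected signal. Vegfd (chromosome X), a growth factor of lymphatic vessels, had the same pattern, with 6.36, 6.20, 6.15 and 6.02 in cortex sham and no detection elsewhere. It fell in cortex to at most 0.798 of the sham level (adjusted p = 0.00106) in all 16 such fits, and its difference was 0.94 ± 0.24 (SE; adjusted p = 0.4264). Ccl19 (chromosome 4), a chemokine that draws CCR7-bearing lymphocytes and dendritic cells, was detected only in striatum I/R 2 h, at 6.83, 5.89, 6.77 and 6.00, against 4.80 to 5.37 in striatum sham, and read 5.38 to 5.93 in cortex I/R 2 h and 5.25 to 5.66 in cortex sham. It rose at least 1.63-fold in striatum (adjusted p = 0.0002201), in all 16 such fits, and the difference was 0.98 ± 0.26 (SE; adjusted p = 0.4264).

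In the other 6 positive differences, from 0.38 to 0.78, cortex carried most of the change in all but Jagn1. The neural transcription factor gene Dmrta2 fell in cortex by 0.53 (adjusted p = 0.027), the zinc finger gene Zfp661 by 0.54 (adjusted p = 0.00137) and the growth factor gene Tgfb2 by 0.41 (adjusted p = 0.01354), while their striatal changes were 0.25, -0.02 and 0.11 and did not pass. The Dmrta2 call was lost without cortex I/R 2 h replicates 2 and 3 (adjusted p = 0.0656 and 0.117) or cortex sham replicates 1 and 3 (0.0876 and 0.0902), and the Tgfb2 call without cortex I/R 2 h replicate 2 (0.0672). Lrrk1 was detected on 2 cortex sham arrays and nowhere else among the 16. Its cortical change passed (adjusted p = 0.001 in limma), in all 16 fits that left out an array, but rests on signals near background. Rgl1, a Ral exchange factor, passed in neither region, with changes of 0.23 in striatum and -0.28 in cortex. The cortical change of Rgl1 passed with the replicate block (adjusted p = 0.04198). Jagn1, a protein of the endoplasmic reticulum needed by neutrophils, was read most precisely: 10.56, 10.57, 10.64 and 10.66 in striatum I/R 2 h, against 10.24, 10.35, 10.32 and 10.44 in striatum sham. In cortex all 4 arrays lay below sham by a small margin, at 10.13 to 10.29 in I/R 2 h and 10.30 to 10.37 in sham. The striatal change was 0.27 (adjusted p = 0.02169, lost without I/R 2 h replicates 3 and 4 and sham replicates 1, 2 and 3, at 0.0546 to 0.0939) and the difference 0.38 ± 0.10 (SE; 95% interval 0.18 to 0.59).

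Of the 12 negative differences, that of Rgs16 (chromosome 1) was the largest in size among those detected on all 16 arrays. It encodes a regulator of G-protein signalling that speeds the return of G-alpha subunits to their inactive state. The signal was 8.78, 8.41, 8.71 and 8.46 in striatum I/R 2 h, against 8.45, 8.62, 8.13 and 8.41 in striatum sham. In cortex it was 7.90, 8.02, 8.04 and 8.00 in I/R 2 h, against 6.94, 6.69, 6.80 and 6.73 in sham. The cortical groups lie a full unit apart with little spread, and the striatal groups overlap. Rgs16 rose 2.30-fold in cortex (log2 1.20, adjusted p = 0.001009), in all 16 fits that left out an array, and the striatal change was 0.19 (adjusted p = 0.62). The difference was -1.01 ± 0.29 (SE; 95% interval -1.60 to -0.42; adjusted p = 0.5939), and 3 of the 32 alternatives called it. The level remained higher in striatum, by 0.60 at 2 h and by 1.61 in sham.

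Rora (chromosome 9), a nuclear receptor that drives clock genes and is needed in cerebellar development, changed mainly in striatum. It had 9.64, 9.48, 9.53 and 9.41 in striatum I/R 2 h, against 10.03, 10.27, 9.98 and 9.87 in striatum sham. In cortex I/R 2 h it had 9.48, 9.23, 9.33 and 9.43, against 9.09, 9.27, 9.12 and 9.13 in cortex sham. The striatal arrays all lay below sham, and the cortical ones above it except for 1 pair. Rora fell in striatum by 0.52 (adjusted p = 0.02147), lost without I/R 2 h replicates 2 and 4 (adjusted p = 0.051 and 0.0546) or sham replicates 1 and 2 (0.0598 and 0.0912), and the cortical change was 0.22 (adjusted p = 0.36). The difference was -0.74 ± 0.19 (SE; 95% interval -1.13 to -0.35; adjusted p = 0.4264).

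Crtc2 (chromosome 3), a coactivator of CREB, was detected on 3 cortex I/R 2 h arrays and on none of the other 13. Cortex I/R 2 h read 6.20, 6.10, 5.90 and 5.80, against 5.18 to 5.47 in cortex sham, and striatum read 5.04 to 5.34 in I/R 2 h and 5.43 to 5.63 in sham. It rose at least 1.18-fold in cortex (adjusted p = 0.01403), lost without cortex I/R 2 h replicate 2 (0.0516) or cortex sham replicate 1 (0.0564), and the difference was -0.98 ± 0.22 (SE; 95% interval -1.42 to -0.54; adjusted p = 0.2335). Glra1 (chromosome 11), a subunit of the inhibitory glycine receptor, was below detection on all 8 cortical arrays, so its difference of -0.85 came from striatum, where it read 5.83, 5.30, 5.85 and 5.79 in I/R 2 h, against 6.36, 6.44, 7.10 and 5.99 in sham. It fell there by 0.78 (adjusted p = 0.005486) in all 16 fits that left out an array. Fam214b (chromosome 4) rose in cortex by 0.50 (adjusted p = 0.005726), again in all 16, with a striatal change of -0.03 and a difference of -0.53 ± 0.15 (SE). The remaining genes of this group had differences of -0.56 for the vesicle fusion protein gene Stx4a, -0.63 for the Akt phosphatase gene Phlpp1, -0.76 for the RNA demethylase gene Alkbh5, -0.81 for the protocadherin gene Pcdhgc3 and -1.0 for Bcl9, a coactivator of beta-catenin. Of these 5 only Pcdhgc3 passed in a region: it fell in striatum to at most 0.947 of the sham level (adjusted p = 0.01602), which was lost without I/R 2 h replicates 1 and 4 (0.0624 and 0.0546) or sham replicates 2 and 3 (0.063 and 0.0649).

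Mal and Mobp, both proteins of compact myelin, complete the 12 negative differences. Mal (chromosome 2) had 10.56, 10.65, 10.58 and 10.54 in striatum I/R 2 h, against 10.90, 10.73, 10.67 and 10.56 in striatum sham. In cortex I/R 2 h it had 9.87, 10.40, 10.06 and 9.90, against 9.57, 9.59, 9.44 and 9.55 in cortex sham. All cortical I/R arrays exceeded all cortical sham arrays. Mal rose in cortex by 0.52 (adjusted p = 0.02783), which 10 of 16 fits that left out an array kept and whose highest adjusted p was 0.1283, and its difference was -0.66 ± 0.20 (SE; 95% interval -1.06 to -0.25; adjusted p = 0.5939). A second Mal probe gave a difference of -0.65, with a cortical change of 0.32 that did not pass (adjusted p = 0.2969) and a striatal change of -0.33. Mobp (chromosome 9) gave -0.72 ± 0.21 (SE) on the probe used, and -0.34 and -0.25 on its 2 other probes, so its probes disagree in size.

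**Figure D2:**
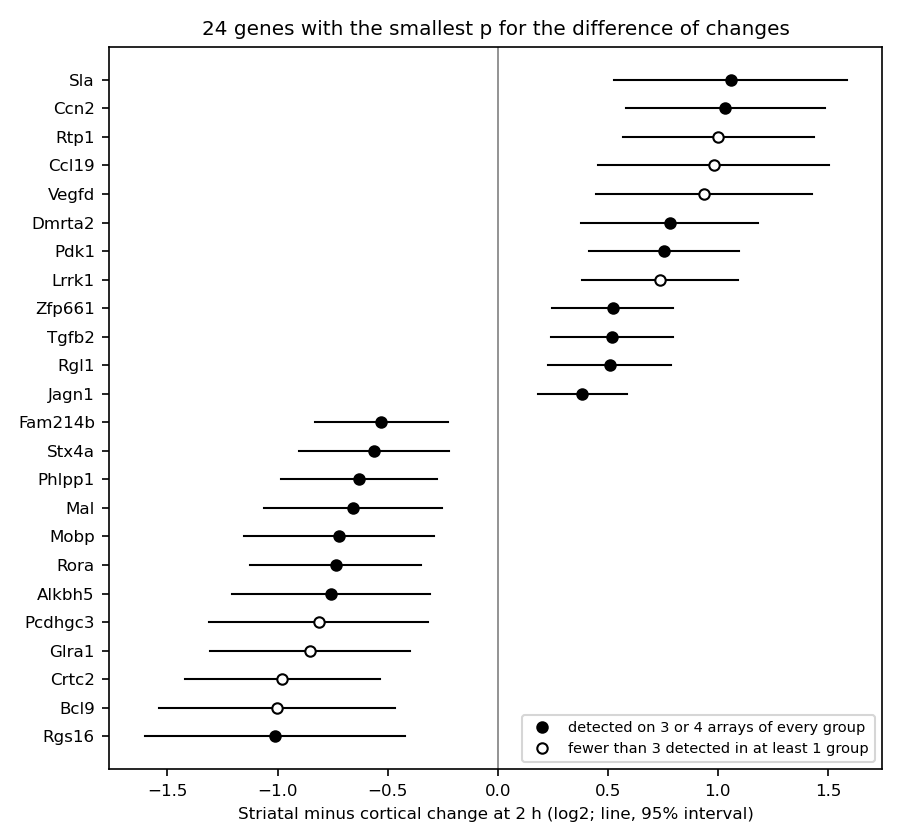
Difference of differences (striatal minus cortical change at 2 h, log2 signal) with its 95% interval for the 24 genes of smallest p, positive and negative; open points were detected on fewer than 3 arrays of at least 1 group. The intervals of Ccn2 (0.58 to 1.49) and Rgs16 (-1.60 to -0.42) leave out 0, like those of the other genes drawn, while the lowest adjusted p over all genes is 0.2335.

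**Figure D3:**
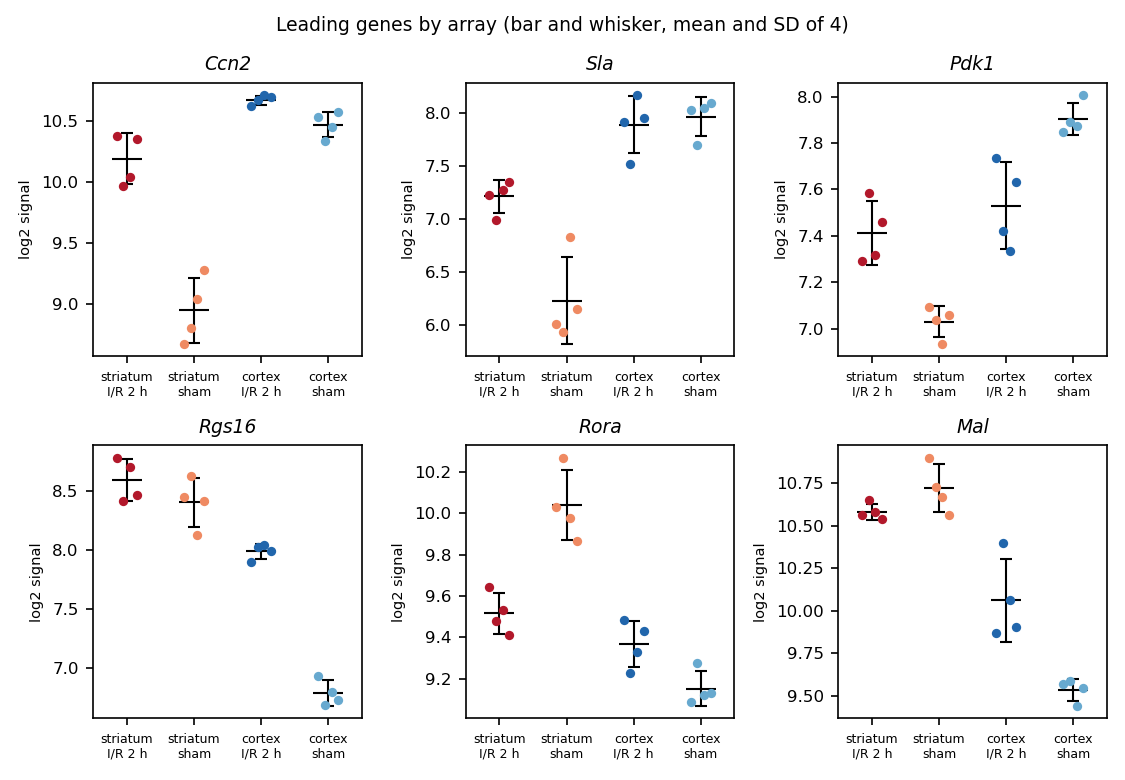
Log2 signal of Ccn2, Sla, Pdk1, Rgs16, Rora and Mal on each of the 16 arrays, with the mean and SD of the 4 arrays per group. Ccn2 separates I/R from sham widely in striatum and by a small margin in cortex. Rgs16 separates them in cortex only, and Pdk1 moves in opposite directions in the 2 regions.

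Genes that passed in both regions were compared next. The genes named here were chosen after their values were seen, by the smaller of their 2 changes and by whether they kept both calls. Over the 78 genes higher in both, the median change was 0.70 in striatum and 0.67 in cortex, and over the 52 lower in both it was -0.53 and -0.54. For 113 of the 130 the 95% interval of the difference lay within 1, for 17 it reached past 1, and 6 had an unadjusted p under 0.05.

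Socs3, the feedback inhibitor of gp130 and STAT3 signalling, was among the largest. It read 9.13, 8.11, 9.22 and 9.59 in striatum I/R 2 h, against 5.43, 5.25, 5.27 and 5.27 in striatum sham, where it was not detected. In cortex it read 8.65, 8.40, 8.69 and 8.75 in I/R 2 h, against 6.12, 5.83, 5.93 and 5.78 in sham. The I/R levels of the 2 regions overlapped. Socs3 rose at least 10.2-fold in striatum and 6.52-fold in cortex (adjusted p = 0.003861 in cortex), in all 16 fits that left out an array, with a difference of 1.00 (95% interval -0.53 to 2.54; adjusted p = 0.902). The lowest striatal I/R array was replicate 2, and a fit to the 16 arrays without it, chosen after seeing the data, called the difference, at 1.32 ± 0.16 (SE; adjusted p = 0.004042). With all 8 groups in the limma fit, leaving out replicate 2 called the difference of no gene (lowest adjusted p = 0.347). Timp1, the tissue inhibitor of metalloproteinases, read 8.72, 8.75, 8.53 and 9.23 in striatum I/R 2 h, against 4.97, 5.04, 4.84 and 4.75 in striatum sham. In cortex the signal was 7.58, 7.13, 9.01 and 8.29 in I/R 2 h, against 5.94, 5.62, 5.70 and 5.07 in sham. Both regions separate I/R from sham by more than a unit. Timp1 rose at least 8.84-fold in striatum (adjusted p = 1.845e-05) and by 2.42 in cortex (adjusted p = 0.002814), and kept both calls in all 16 fits. Its difference of 1.49 (95% interval 0.17 to 2.80; adjusted p = 0.7532) is uncertain in size, since it was detected on 0 striatum sham arrays and on 1 cortex sham array; with values raised to the lowest detected signal the cortical rise was 4.49-fold.

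Zfp36, which encodes tristetraprolin and speeds the decay of cytokine mRNAs, changed almost equally. It read 8.91, 7.91, 8.86 and 8.19 in striatum I/R 2 h, against 6.43, 6.29, 6.30 and 6.59 in striatum sham. Cortical arrays had 8.63, 8.64, 8.88 and 7.78 in I/R 2 h, against 6.34, 6.49, 6.45 and 6.31 in sham. It rose by 2.07 in striatum (adjusted p = 0.005867) and 2.09 in cortex (adjusted p = 0.004663), a difference of -0.02, although the 95% interval of -1.23 to 1.20 does not exclude a 2-fold difference either way. Further genes that kept both calls were Angptl4 (1.49 in striatum, 1.41 in cortex), a lipase inhibitor, Txnip (1.40 and 1.31), an inhibitor of thioredoxin, Nfkbia (1.33 and 1.04), the inhibitor of NF-kB, Ier3 (1.35 and 1.59), an immediate early survival gene, Fas (1.11 and 1.00), the death receptor, and Irs2 (0.92 and 0.98), a docking protein of the insulin receptor. Depp1, a FOXO target, was not detected in either sham group and rose at least 3.55-fold in striatum and at least 4.77-fold in cortex. The chemokine genes Cxcl1 and Ccl4 also passed in both, with lower bounds of 9.67-fold and 9.21-fold in striatum and of 4.66-fold and 11.9-fold in cortex. Cxcl1 lost the cortical call without cortex I/R 2 h replicates 2 and 3 or cortex sham replicates 1 and 2 (adjusted p = 0.0598 to 0.0798). Ccl4 lost it without cortex I/R 2 h replicate 3 (0.061), and lost the striatal call in 6 of the 16 fits (highest adjusted p = 0.08602). Their differences had intervals of -1.65 to 3.21 and -3.66 to 2.75, which bound little. A second Ccl4 probe passed in neither region, with 2.20 in striatum (adjusted p = 0.143 in limma) and 2.82 in cortex (adjusted p = 0.0672).

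The largest decreases shared by both regions included Nkx2-2. It encodes a transcription factor of oligodendrocyte precursors and read 6.95, 6.76, 6.56 and 6.50 in striatum I/R 2 h, against 8.71, 8.58, 8.51 and 7.86 in striatum sham. The cortical signal was 6.24, 6.68, 5.45 and 5.58 in I/R 2 h, against 7.49, 6.88, 7.12 and 7.03 in sham. I/R and sham do not overlap in either region. Nkx2-2 fell by 1.72 in striatum and by 1.14 in cortex (adjusted p = 0.0066 in cortex), in all 16 fits, with a difference of -0.58 (95% interval -1.28 to 0.12). A second probe gave -0.52 in striatum and -0.26 in cortex, where it did not pass. Sox9, a transcription factor of astrocytes and precursors, fell by 0.76 in striatum and by 0.78 in cortex, with a difference of 0.02 (95% interval -0.40 to 0.45), and its relative Sox21 by 0.69 and 0.75. Slc40a1, the iron exporter ferroportin, fell by 0.94 in striatum and by 1.08 in cortex, and the zinc finger gene Zfp457 by 1.23 and 1.24. These 4 kept both calls in all 16 fits. Hes5, a Notch effector, fell by 1.29 in striatum in all 16 and by 1.08 in cortex, lost there without I/R 2 h replicate 3 (adjusted p = 0.099) or sham replicate 2 (0.0554).

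**Figure D4:**
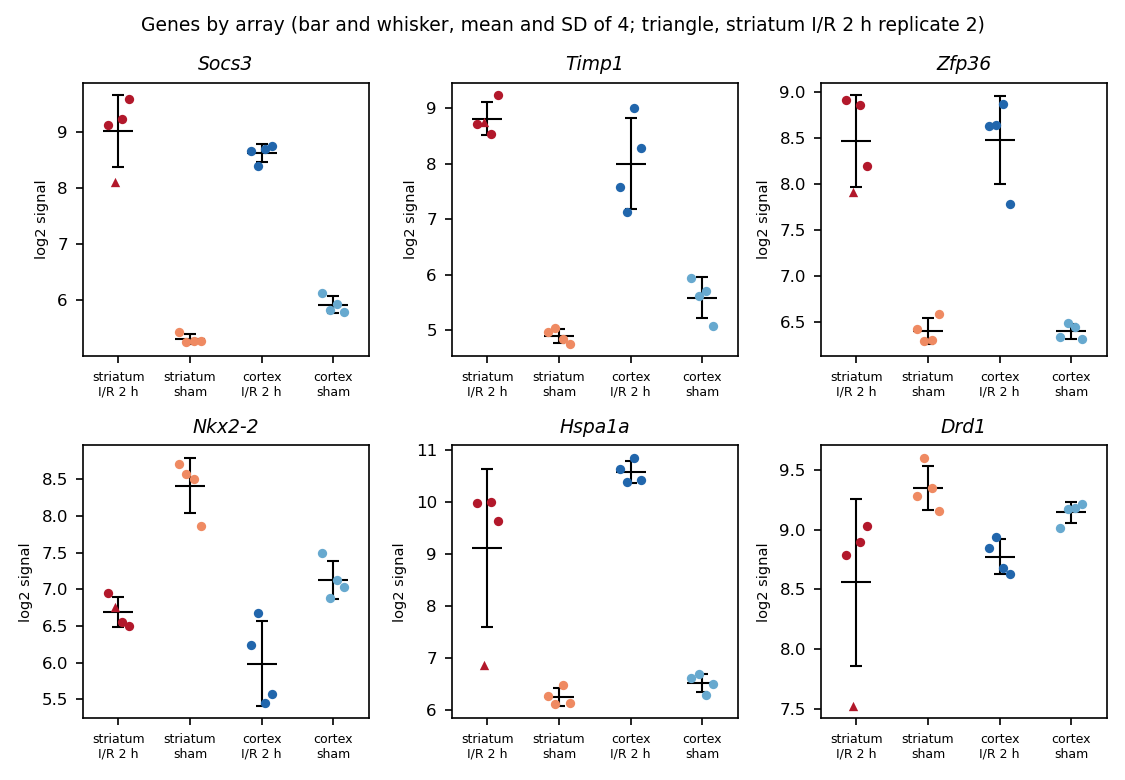
Log2 signal of Socs3, Timp1, Zfp36, Nkx2-2, Hspa1a and Drd1 on each of the 16 arrays, with the mean and SD of the 4 arrays per group; the triangle is striatum I/R 2 h replicate 2. Socs3, Timp1, Zfp36 and Nkx2-2 separate I/R from sham in both regions, and the triangle lies far below its group for Hspa1a (6.86) and Drd1 (7.52).

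The promoters of 3 of these shared genes are shown because each holds a binding motif of a stress or cytokine pathway within the 250 bases before its transcription start. The sequences are from RefSeq, build GRCm38.p6, 5′ to 3′ on the gene's own strand, with the motif in capitals: an NF-kB motif in Nfkbia (chr12:55492648-55492897, minus strand), the cyclic AMP response element TGACGTCA in Dusp1 (chr17:26508473-26508722, minus strand), a phosphatase gene that passed in both regions (0.93 in striatum and 0.99 in cortex, each call kept in 11 of 16 fits that left out an array, with highest adjusted p of 0.142 and 0.135), and the STAT motif TTCNNNGAA in Socs3 (chr11:117969367-117969616, minus strand).
Nfkbia: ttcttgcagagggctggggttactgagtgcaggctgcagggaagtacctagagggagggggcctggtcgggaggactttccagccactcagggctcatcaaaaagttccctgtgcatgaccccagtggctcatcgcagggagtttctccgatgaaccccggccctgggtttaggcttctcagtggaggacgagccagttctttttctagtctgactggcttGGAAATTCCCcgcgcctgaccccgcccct
Dusp1: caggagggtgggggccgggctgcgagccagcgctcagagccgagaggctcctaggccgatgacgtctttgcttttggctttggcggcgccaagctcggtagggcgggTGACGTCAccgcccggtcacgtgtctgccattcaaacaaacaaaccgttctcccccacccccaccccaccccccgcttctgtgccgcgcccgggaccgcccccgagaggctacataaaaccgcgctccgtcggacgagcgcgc
Socs3: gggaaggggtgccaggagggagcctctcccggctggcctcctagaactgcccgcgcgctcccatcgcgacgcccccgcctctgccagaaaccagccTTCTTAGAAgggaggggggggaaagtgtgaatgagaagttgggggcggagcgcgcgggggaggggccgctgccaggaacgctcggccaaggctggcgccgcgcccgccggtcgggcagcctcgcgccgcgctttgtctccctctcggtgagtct

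A match is a description of these letters and not a tested site. Promoter sequence was at hand for 64 of the 78 genes higher in both regions, 42 of the 52 lower in both and 7523 of all 9475 tested, and both strands were searched. The cyclic AMP response element was found in 4 (6.25%) of the genes higher in both and in 3 (7.14%) of those lower in both, against 3.08% of all tested. The AP-1 motif TGANTCA, whose letters cannot overlap with that element, was found in 5 (7.81%) and in 0, against 5.72% of all tested. The STAT motif was in 6 (9.38%) and 5 (11.9%), against 7.26%, and the heat shock element GAANNTTC in 6 (9.38%) and 2 (4.76%), against 6.15%. The NF-kB motif was in 7 (10.94%) and 1 (2.38%), against 10.94%, and the CArG box of serum response factor in 3 (4.69%) and 2 (4.76%), against 1.45%.

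Gene lists were compared by counts and medians, beside a median difference of 0.01 over all genes tested. The difference of no member of any list passed, and counts of members with an unadjusted p under 0.05 stand against 3.61% (positive) and 2.8% (negative) of all genes. Counts of members that passed within a region stand against 3.49% higher and 2.81% lower in striatum and 2.21% higher and 2.45% lower in cortex. Of 33 lists, oligodendrocyte and myelin markers had the most negative median among those with more than 4 measured members, -0.35 over 25 of 30 measured, with 23 members below 0. Of these, 7 had an unadjusted p under 0.05, all negative: Mbp, Mog, Mobp, Cnp, Mal, Ugt8a and Tspan2. Mbp, myelin basic protein, read 13.86, 13.86, 13.91 and 13.84 in striatum I/R 2 h, against 13.92, 13.84, 13.97 and 13.99 in striatum sham. Arrays of cortex read 13.95, 13.99, 13.97 and 13.88 in I/R 2 h, against 13.86, 13.70, 13.78 and 13.79 in sham, so all cortical I/R arrays were above all cortical sham arrays by a small margin. The median change was -0.04 in striatum and 0.33 in cortex. In striatum 0 of 25 passed. In cortex 4 passed, all higher: Opalin, a membrane protein of myelin paranodes, by 1.21 (adjusted p = 0.01397, lost without cortex I/R 2 h replicate 2, at 0.0641), Mal by 0.52, and Ugt8a and Cnp, enzymes of myelin lipid and of myelinating cells, by 0.51 each. The count in cortex was 0 to 5 when 1 array was left out, with the Cnp call kept in 3 of 16 fits and that of Ugt8a in 9. The median of the list stayed between -0.42 and -0.27 in all 29 alternatives, and without striatum I/R 2 h replicate 2 it was -0.30, with 2 members at an unadjusted p under 0.05. In sham, 2 of the 4 oligodendrocyte markers were higher in striatum than in cortex.

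Immediate early genes, transcribed within minutes of stimulation without new protein, had a median difference of -0.27 over 28 of 40 measured, and 0 members with an unadjusted p under 0.05. The median change was 0.60 in striatum and 0.89 in cortex, and 6 members passed in striatum, Jun, Junb, Ier3, Dusp1, Zfp36 and Gadd45g, all of them also among the 11 that passed in cortex. The others in cortex were Fos, Fosb, Ccn1 (adjusted p = 0.05214 with the replicate block), Maff and Gadd45b. The striatal call of Gadd45g (adjusted p = 0.04642 in limma) and the cortical call of Ccn1 (0.04704) were each kept in 2 of the 16 fits that left out an array. Fosb, an AP-1 subunit, read 8.06, 6.75, 8.16 and 7.55 in striatum I/R 2 h, against 5.93, 6.37, 6.60 and 6.32 in striatum sham. In cortex it read 10.21, 9.56, 10.33 and 9.52 in I/R 2 h, against 7.26, 7.50, 7.73 and 7.71 in sham. It rose by 2.36 in cortex (adjusted p = 0.003131), in all 16 fits that left out an array, and its striatal change of 1.32 did not pass (adjusted p = 0.07408), with a difference of -1.03 (95% interval -2.34 to 0.27). Fos had 1.38 in striatum and 1.99 in cortex, where its call (adjusted p = 0.04551) was kept in 5 of the 16 fits. Striatum I/R 2 h replicate 2 was the lowest of its group for Fos (8.63 against 9.54 to 10.51) and for Fosb. Without it the list's median difference was -0.14 and its striatal change 0.85, and 5 members passed in striatum. Over the fits that left out 1 array, the number that passed was 2 to 6 in striatum and 6 to 13 in cortex.

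Cytokines and chemokines had a median difference of 0.14 over 25 of 36 measured, with 1 positive and 1 negative member at an unadjusted p under 0.05. The median change was 0.91 in striatum and 0.36 in cortex, or 0.28 and 0.10 with values raised to the lowest detected signal, when the median difference was 0.07. In striatum 8 passed, all higher: Il1b, Osm, Ccl2, Ccl4, Ccl7, Ccl12, Ccl19 and Cxcl1. In cortex 2 passed, Ccl4 and Cxcl1, although a second Ccl4 probe passed in neither region. Ccl7, a monocyte chemokine, read 7.60, 5.58, 7.65 and 7.74 in striatum I/R 2 h, against 4.47 to 4.53 in striatum sham. In cortex the signal was 6.09, 5.86, 7.05 and 6.18 in I/R 2 h, against 4.47 to 4.70 in sham, and neither sham group was detected. Ccl7 rose at least 2.87-fold in striatum (adjusted p = 0.007904) in all 16 fits, its cortical change had an adjusted p of 0.0763, and the difference was 0.92 (95% interval -0.74 to 2.59). The other striatal calls were less steady: Ccl12 was lost without I/R 2 h replicate 4 (adjusted p = 0.0522), Osm without I/R 2 h replicates 1 and 3 (0.0652 and 0.0607), Il1b in 6 of the 16 fits and Ccl2 in 14. The number that passed in striatum was 4 to 9, and 9 without I/R 2 h replicate 2, when the median difference was 0.27. With only genes detected on all 4 arrays of a group it was -0.04, the 1 of 29 alternatives with the other sign. S100a8 and S100a9, which mark neutrophils, had a mean level of 6.88 to 8.62 in striatum I/R 2 h, 5.20 to 6.31 in striatum sham, 6.66 to 8.86 in cortex I/R 2 h and 4.82 to 7.06 in cortex sham. None of the 12 measured neutrophil and monocyte markers passed in either region. The part of such cells in the chemokine changes was not tested.

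Genes of cholesterol synthesis and sterol handling had a median difference of -0.13 over 29 of 36 measured. Of these, 5 had an unadjusted p under 0.05, all negative: Pmvk, Mvd, Msmo1, Sc5d and Scd1. In striatum 6 rose and 1 fell, and in cortex 9 rose and 1 fell. Hmgcs1, Mvd, Fdps, Hsd17b7 and Stard4 rose in both, although the striatal call of Stard4 (adjusted p = 0.04932) was kept in 0 of the 16 fits that left out an array and those of Hsd17b7 in 10 in each region. Mvd, mevalonate diphosphate decarboxylase, read 7.76, 7.34, 7.46 and 7.60 in striatum I/R 2 h, against 7.15, 6.99, 6.61 and 7.05 in striatum sham. Cortical arrays had 8.22, 8.08, 8.15 and 8.18 in I/R 2 h, against 7.17, 6.98, 6.74 and 6.54 in sham. I/R and sham were apart in both regions, more widely in cortex. Mvd rose by 1.30 in cortex (adjusted p = 4.966e-05) in all 16 fits that left out an array. It rose by 0.59 in striatum (adjusted p = 0.02858), a call lost without I/R 2 h replicates 1, 3 and 4 (0.104, 0.0546 and 0.0627) or sham replicates 2 and 3 (0.0673 and 0.119), and the difference was -0.71 (95% interval -1.18 to -0.24; adjusted p = 0.6672). Hmgcs1, the synthase ahead of the rate-limiting reductase, rose by 0.66 in striatum and 0.60 in cortex in all 16 fits, with a difference of 0.06 (95% interval -0.28 to 0.39). The counts were 1 to 6 higher in striatum and 5 to 10 higher in cortex when 1 array was left out. The median was below 0 in all 29 alternatives.

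Cortical projection neuron markers had a median difference of 0.15 over 27 of 37 measured, with 5 positive members at an unadjusted p under 0.05: Slc17a7, Foxp2, Slc30a3, Crym and Stx1a. Slc17a7, the vesicular glutamate transporter VGLUT1, read 10.04, 10.03, 9.94 and 9.71 in striatum I/R 2 h, against 8.56, 9.60, 9.66 and 9.12 in striatum sham. The cortical signal was 12.17, 12.02, 11.89 and 11.74 in I/R 2 h, against 12.15, 12.51, 12.04 and 11.96 in sham. All striatal levels were below all cortical ones, and the lowest striatal sham array was replicate 1. The striatal change was 0.70 (adjusted p = 0.08089), the cortical change -0.21, and the difference 0.90 ± 0.35 (SE; adjusted p = 0.7245). Stx1a, a syntaxin of the synaptic vesicle fusion complex, rose in striatum by 0.99 (adjusted p = 0.01033), lost without striatum sham replicate 1 (0.0598). The median stayed above 0 in all 29 alternatives, from 0.08 to 0.22. Striatal projection neuron markers had a median difference of -0.22 over 29 of 40 measured, which was -0.02 without striatum I/R 2 h replicate 2.

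Several stress pathways had median differences near 0. Heat shock proteins and cochaperones had a median difference of -0.003 over 30 of 33 measured. Hspa1a, the inducible HSP70, read 9.99, 6.86, 10.00 and 9.64 in striatum I/R 2 h, against 6.26, 6.11, 6.48 and 6.12 in striatum sham. Arrays of cortex read 10.65, 10.39, 10.86 and 10.42 in I/R 2 h, against 6.60, 6.68, 6.28 and 6.49 in sham. It rose by 4.07 in cortex (adjusted p = 0.01476) in all 16 fits that left out an array, and was the 1 member of its list that passed there. The striatal change of 2.88 did not pass (adjusted p = 0.0695), and without replicate 2 it was 3.63 (adjusted p = 0.0369). The difference was -1.19 (95% interval -3.98 to 1.61).

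Hypoxia and glycolysis genes had a median difference of 0.06 over 31 of 39 measured, with Pdk1 and Car12 positive and Slc2a1 and Mxi1 negative at an unadjusted p under 0.05. Slc2a1, the glucose transporter GLUT1, rose in both, by 0.35 in striatum (adjusted p = 0.03771, kept in 9 of 16 fits) and by 0.67 in cortex (adjusted p = 0.0006202, kept in 16). In striatum 3 of the 31 were higher and 1 lower, and 0 of either without I/R 2 h replicate 2. The gp130, STAT3 and SOCS axis had a median difference of 0.01, with 5 of 19 measured higher in striatum and 4 in cortex, or 2 to 5 in each when 1 array was left out. Its median change was 0.34 in striatum and 0.09 in cortex, and the medians by slide overlapped (0.15 to 0.46 and 0.10 to 0.44). NF-kB feedback and innate signalling had a median difference of 0.02, with 4 of 18 higher in striatum (2 to 4) and 3 in cortex (1 to 2), and Nfkbia in both. The cortical call of Cd14, a lipopolysaccharide co-receptor, was kept in 0 of the 16 fits that left out an array (highest adjusted p = 0.1329). Glucocorticoid-induced genes had -0.05, with 7 of 28 higher and 1 lower in striatum and 10 higher and 1 lower in cortex, 6 of them higher in both. When 1 array was left out, 3 to 8 were higher in striatum and 6 to 10 in cortex. The median for FOXO targets and starvation genes was -0.07, with 6 of 23 higher in striatum (4 to 6 when 1 array was left out), 7 higher and 1 lower in cortex and 6 higher in both, and the 7 cortical calls did not change in number. For the 38 antioxidant and NRF2 genes measured the median was -0.0004, and for 36 of them the 95% interval lay within 1. For the 45 subunits of the respiratory chain and ATP synthase it was -0.05, and the interval lay within 1 for all 45.

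Markers of other cells and tissues were also read. Haemoglobin and erythroid markers, 4 of 14 measured, had a median difference of -0.41 that rested on single arrays: leaving out 1 array in turn gave -0.76 (without cortex I/R 2 h replicate 1) to 0.09 (without striatum sham replicate 2). It was -0.04 without striatum I/R 2 h replicate 2 and 0.02 without cortex I/R 2 h replicate 3. Hba-a1, a haemoglobin chain, was 13.07, 11.35, 13.08 and 12.59 in striatum I/R 2 h, against 8.13, 10.97, 7.37 and 8.22 in striatum sham, and 11.29 to 13.67 in cortex I/R 2 h, against 7.29 to 8.83 in cortex sham. Homeostatic microglia markers, 25 of 26 measured, had -0.04, and for 23 of them the 95% interval lay within 1. Endothelial and blood-brain barrier markers had -0.15 over 24 measured and homeostatic astrocyte markers -0.13 over 25. Choroid plexus and ependymal markers had 0.31 over 15, with cortical arrays that ranged widely, and GABAergic interneuron markers 0.23 over 21. The part that any of these cells has in the genes above was not tested.

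**Figure D5:**
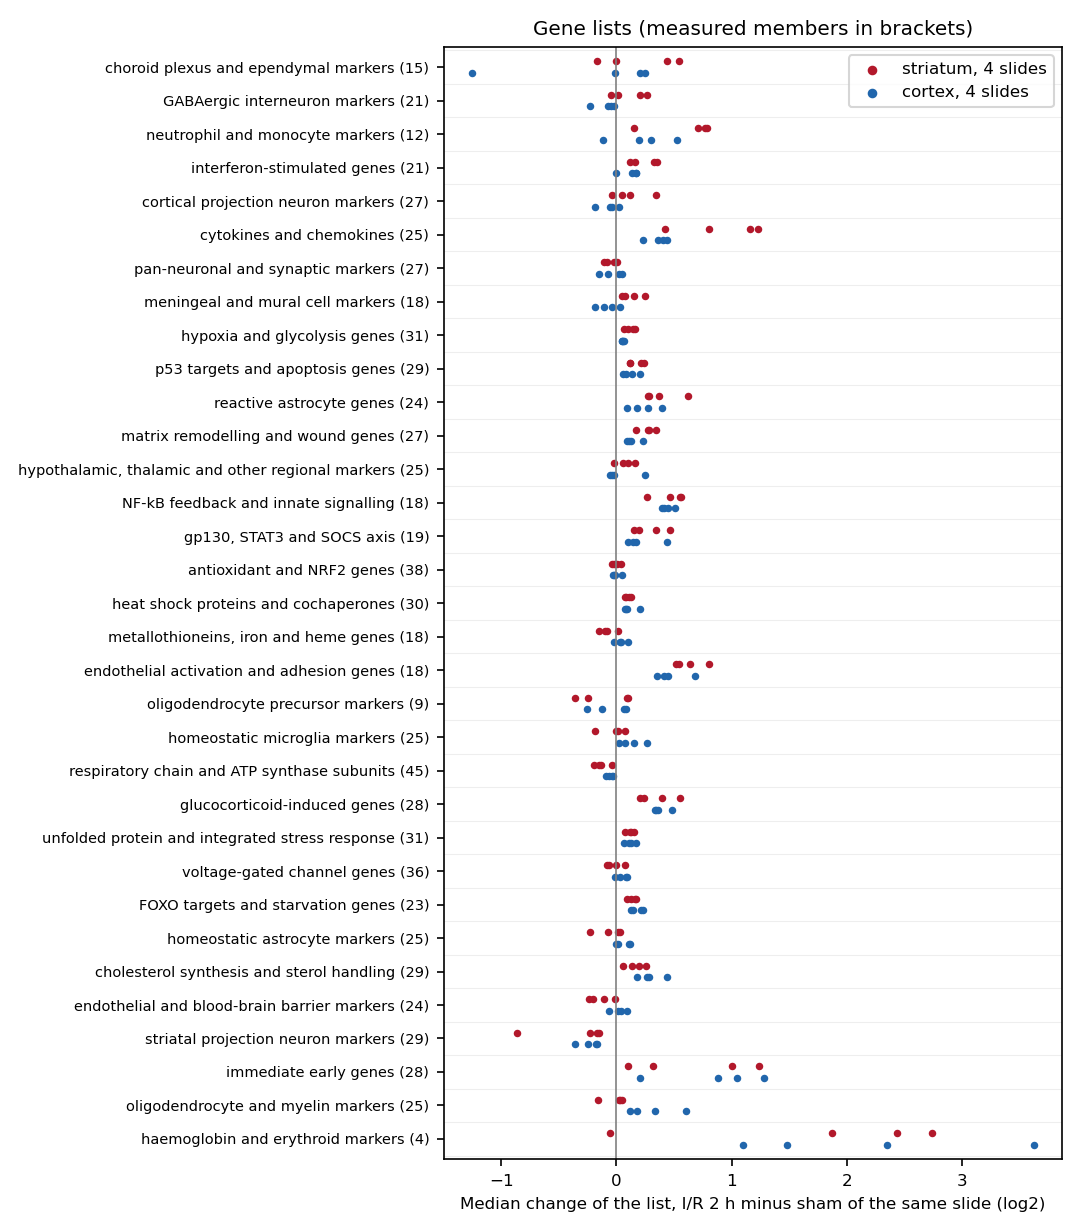
Median change of each of 33 gene lists (I/R 2 h minus the sham array of the same replicate number, log2 signal), with 4 points for striatum above 4 points for cortex, ordered by the median difference of differences. The oligodendrocyte list lies from -0.16 to 0.05 in striatum and from 0.12 to 0.60 in cortex, and the 2 sets do not overlap. Nor do they for hypoxia and glycolysis genes (0.07 to 0.16 in striatum, 0.05 to 0.06 in cortex). Meningeal and mural cell markers are apart as well (0.05 to 0.25 and -0.18 to 0.03), and the sets of every other list overlap.

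The region difference was also read at the later reperfusion times, which share the sham arrays with the comparison at 2 h and so are given side by side only. At 8 h, 0 genes passed (748 with an unadjusted p under 0.05, lowest adjusted p = 0.08695), and at 24 h 6 passed, 2 positive and 4 negative. For Ccn2 the difference was 1.03 at 2 h, 1.10 at 8 h and 0.99 at 24 h, and for Sla it was 1.06, 1.17 and 1.31, the last with an adjusted p of 0.04491. For Glra1 it was -0.85, -0.77 and -1.31, the last with an adjusted p of 0.0208. For Rgs16 it was -1.01 at 2 h, -1.42 at 8 h and -0.29 at 24 h, and for Pdk1 it was 0.76, 0.65 and 0.07. Tested directly, with no sham array involved, the gap between regions differed from that at 2 h in 0 genes at 8 h (361 with an unadjusted p under 0.05) and in 8 genes at 24 h, 2 higher and 6 lower. By the same test, 3219 genes differed between striatum sham and cortex sham, 1644 higher and 1575 lower in striatum, and 3472 between the I/R 2 h groups.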

How the data were processed

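Per the file headers, the authors exported the bead signals from the scanner software without normalization, as a linear intensity per probe, with a detection value deposited as a fraction, high where the detection p is low. A second deposited file gives each signal as a linear ratio to the mean sham of its region, after a scaling that is not given in the sources used here, and served as an alternative only. Intensities were background-corrected and quantile-normalized over all 32 arrays with neqc (offset 16) in limma 3.58.1 (R 4.3.3, data.table, version 1.17.8). Detection at p under 0.01 was asked for on 4 or more arrays, which kept 12758 probes, with the brightest probe for each of 9475 genes, and an 8-group model was fitted (lmFit, eBayes). Tests were two-sided, with Benjamini-Hochberg adjustment over all genes and a threshold of 0.05. Scripts were tested on simulated data. The precision is limited by 4 arrays per group. Where a gene was not detected in a group, folds are bounds: values were raised to each array's lowest detected signal, 5.60 to 5.97.

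The genes named are the 12 of smallest p in each direction, up to 4 members per list, Gpx1 and some looked at after their values were seen. The members and lists were chosen with earlier results of these data known. Array codes in the labels were taken as slides, an assumption: by them each slide holds every group of 1 region, and the place on the slide cannot be told apart from the group. Deviations of same-numbered arrays correlated at -0.012 to 0.145 in striatum and 0.120 to 0.239 in cortex, where every correlation was over 0.1. Across regions, same-numbered arrays correlated at 0.052 to 0.204 in sham and -0.049 to 0.193 in I/R 2 h. Differently numbered arrays were not compared in this way, so these correlations cannot decide whether the numbers pair arrays. The main fit used no pairing in either region. The replicate block moved the calls from 597 to 777 in striatum and from 441 to 579 in cortex. Alternatives were other scalings, filters, offsets, fits and left-out arrays.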

Additional observations from a re-analysis of the deposited data

Results flagged for a closer look

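On 7 occasions among 100 groups of 4 arrays checked, 1 array of a named gene lay far from the other 3 of its group, where chance alone gives about 1 in 20. Rtp1 was 4.892 in cortex I/R 2 h replicate 1, against 5.121 to 5.167 on the others, all below detection. Sla was 7.695 in cortex sham replicate 2, against 8.029 to 8.095. Zfp661 was 6.472 in striatum sham replicate 4, against 6.717 to 6.76, and Stx4a was 7.814 on the same array, against 8.197 to 8.266. Bcl9 was 6.38 in striatum sham replicate 3, against 5.212 to 5.309. Glra1 was 5.296 in striatum I/R 2 h replicate 2, against 5.79 to 5.847. Phlpp1 was 6.453 in striatum I/R 2 h replicate 4, against 6.696 to 6.715.

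For 8 of the 24 genes of smallest p, the 4 striatal changes had one sign and the 4 cortical changes the other, with each I/R 2 h array set against the sham array of the same number. The differences were 0.7562 for Pdk1, 0.7804 for Dmrta2, 0.3834 for Jagn1, -0.979 for Crtc2, -0.852 for Glra1, -0.6313 for Phlpp1, -0.7571 for Alkbh5 and -0.6571 for Mal. The test of the difference passed for none of the 8 (limma, adjusted p 0.2335 to 0.5939). The share of all genes with such signs was not counted. Nothing is read from the 8, since the p that chose the 24 uses the same arrays. Glra1 was below detection on all cortical arrays, and Crtc2 on all striatal ones, so their signs there carry no information.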

How the results depend on the processing

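The region difference at 2 h had 0 calls in 26 of the 32 alternatives tried, including those with the slide as a block, other scalings, offsets and filters, and each array left out in turn. The authors' processed ratios gave 1 call, at 2-fold or more, with 1271 genes called in striatum and 2008 in cortex. The fit to the 16 arrays alone gave 9 calls, 4 of them at 2-fold, with 1568 and 1314 genes called in the regions. Array weights gave 55, 7 at 2-fold, with 2478 and 1660. Taking same-numbered arrays as 1 animal gave 2, both at 2-fold. Chosen after seeing the data, the 16 arrays without striatum I/R 2 h replicate 2 gave 5, 3 at 2-fold, with 1215 and 1255, and the 16 arrays with a replicate block gave 1, at 2-fold, with 1544 and 1259. The cause of these changes was not tested. With the replicate block and all 32 arrays there were 0 calls (lowest adjusted p = 0.2027; 723 genes with an unadjusted p under 0.05), 777 in striatum and 579 in cortex, and it changed no call of the region difference; among the genes named in the text it added the cortical calls of Pdk1 and Rgl1 and lost those of Ccn1 and Cd14. Leaving out each array in turn gave 0 calls of the difference, 191 to 957 in striatum and 173 to 441 in cortex. Among the 24 genes of smallest p, the sign of the difference was the same in all fits that measured the gene, except for Lrrk1, which ranged from -0.001 to 0.81. Genes near background have differences that depend on the floor, as for Rtp1 (0.21 to 1.07 over 29 fits).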
